A study of Mus musculus with 7 samples.

Results

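The microglia and complement genes described here are 33 protein-coding mouse genes that were taken from the deposited table by their symbols, out of 55416 rows, of which 21885 are protein-coding. They were placed in 4 classes by what the genes are known for, and the class names are labels and not measures of the state of the cells. The homeostatic class holds 11 genes, namely Cx3cr1, P2ry12, P2ry13, Tmem119, Fcrls, Siglech, Gpr34, Selplg, Olfml3, Csf1r and Sall1. The activation class holds 9 genes, namely C3, Cd14, Cd68, Lyz2, Fcgr3, Fcer1g, Tyrobp, Trem2 and Ctss, and the C1q class holds C1qa, C1qb and C1qc. The other 10 genes are general myeloid genes, namely Aif1, Cd53, Cd33, Laptm5, Ptprc, Spi1, Irf8, Ly86, Mpeg1 and Inpp5d. All 33 genes had enough counts to be tested, and none was at 0 in any library.

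RNA-seq was performed on prefrontal cortex (PFC) of female C57BL/6 wild-type mice that had received a recombinant AAV in both hemispheres. The 3 Ctr libraries came from mice given the empty vector, the 2 Ref libraries from mice given PAXIP1-AS1 with the reference C allele, and the 2 Alt libraries from mice given PAXIP1-AS1 with the alternative G allele. PAXIP1-AS1 is a human long noncoding RNA, and the study asked what its overexpression, and the allele it carries, do to the PFC. PAXIP1-AS1 in Ref and Alt, and the EGFP reporter that all 3 vectors carried, were under the human synapsin promoter, which is active in neurons. The age of the mice at collection was not given in the sources used here. The labels do not say that the libraries of a group came from separate mice, so p-values measure the spread between these libraries, which may be technical.

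Microglia are the resident macrophages of the brain. In the resting adult cortex they express a homeostatic set of receptors, such as the fractalkine receptor Cx3cr1 and the purine receptor P2ry12, by which they sense neurons, and they depend on signalling through Csf1r to survive. Microglia are also the main source of C1q in the brain, the first component of the classical complement pathway, which tags synapses and debris for removal, while the receptor Trem2 and its adaptor Tyrobp drive the change towards a phagocytic state rich in lysosomal enzymes.

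Total counts per library ranged from 16655697 to 20750857, and the 33 genes took 0.0793% to 0.107% of them. Levels are given in CPM, the counts of a gene scaled to a common library size with edgeR's TMM factors, which ranged from 0.924 to 1.05. No 2 libraries within a group were alike to within counting error, since the chi-square divided by its degrees of freedom was 18.59 to 25.04 for pairs within Ctr and Ref and 58.05 for the Alt pair. Alt replicate 1 had the smallest total count and the lowest TMM factor, and values without it are given for members whose call it ended and for most of the gene lists. Neuron, astrocyte and oligodendrocyte markers were detected in every library, as the labelled tissue would have them. In bulk tissue, fewer microglia and less RNA per microglial cell cannot be told apart.

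Spi1, a member, encodes the myeloid transcription factor PU.1, whose binding sites are built on the letters GAGGAA. The promoters of some members that differed between the groups are shown first. These are RefSeq promoters of build GRCm38.p6, running from 250 bases before the start of the transcript to 50 bases after it, printed in the direction of transcription, and capitals mark GAGGAA or its reverse complement TTCCTC. Ctss, C1qb, C1qc and Trem2 had lower levels in Alt than in Ctr, whereas P2ry13 and Cx3cr1 had higher levels.
Ctss, chr3:95526536-95526835, plus strand: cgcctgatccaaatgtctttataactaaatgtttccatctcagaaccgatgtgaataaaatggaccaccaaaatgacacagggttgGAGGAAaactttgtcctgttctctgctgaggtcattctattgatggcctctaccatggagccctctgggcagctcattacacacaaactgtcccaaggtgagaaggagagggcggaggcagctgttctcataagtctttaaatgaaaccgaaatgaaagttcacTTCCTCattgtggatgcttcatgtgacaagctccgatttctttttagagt
C1qb, chr4:136886151-136886450, minus strand: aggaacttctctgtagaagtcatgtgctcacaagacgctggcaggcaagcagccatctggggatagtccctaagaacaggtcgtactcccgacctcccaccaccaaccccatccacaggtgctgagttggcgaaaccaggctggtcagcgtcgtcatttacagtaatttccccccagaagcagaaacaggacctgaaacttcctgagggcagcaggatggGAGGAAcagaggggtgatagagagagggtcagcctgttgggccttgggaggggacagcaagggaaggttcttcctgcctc
C1qc, chr4:136892865-136893164, minus strand: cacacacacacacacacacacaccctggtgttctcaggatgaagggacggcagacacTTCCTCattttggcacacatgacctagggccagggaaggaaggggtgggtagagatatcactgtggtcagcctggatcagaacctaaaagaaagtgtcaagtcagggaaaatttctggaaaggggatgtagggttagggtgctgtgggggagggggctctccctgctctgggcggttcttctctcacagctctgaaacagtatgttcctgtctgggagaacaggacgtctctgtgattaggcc
Trem2, chr17:48346151-48346450, plus strand: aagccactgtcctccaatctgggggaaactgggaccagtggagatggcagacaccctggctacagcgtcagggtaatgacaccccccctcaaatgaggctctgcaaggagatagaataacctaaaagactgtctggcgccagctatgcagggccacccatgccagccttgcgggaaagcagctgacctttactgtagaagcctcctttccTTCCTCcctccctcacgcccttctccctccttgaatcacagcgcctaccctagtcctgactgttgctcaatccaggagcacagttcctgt
P2ry13, chr3:59210833-59211132, minus strand: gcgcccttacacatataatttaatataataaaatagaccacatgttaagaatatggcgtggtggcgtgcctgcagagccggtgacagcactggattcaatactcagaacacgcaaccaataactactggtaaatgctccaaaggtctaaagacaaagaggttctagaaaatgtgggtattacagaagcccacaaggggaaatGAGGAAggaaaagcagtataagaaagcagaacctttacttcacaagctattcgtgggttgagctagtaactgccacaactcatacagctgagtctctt
Cx3cr1, chr9:120068247-120068546, minus strand: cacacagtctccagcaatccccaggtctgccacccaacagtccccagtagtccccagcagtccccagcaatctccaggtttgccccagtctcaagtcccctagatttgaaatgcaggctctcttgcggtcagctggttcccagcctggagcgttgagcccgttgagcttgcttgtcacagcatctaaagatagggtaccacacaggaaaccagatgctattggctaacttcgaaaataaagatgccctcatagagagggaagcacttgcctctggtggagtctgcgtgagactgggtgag
The Ctss promoter held a match 164 bases before the transcript start and another at the start itself, and matches lay 30 bases before the start in C1qb, 193 in C1qc, 40 in Trem2 and 48 in P2ry13. The Cx3cr1 window held none, and neither did that of Ly86, which was lower in Alt and is not shown. RefSeq promoters were matched by symbol for 25 of the 33 genes and not for Spi1, Cd14, Tmem119, Csf1r, Tyrobp, C1qa, Gpr34 and Selplg. Of the 30 promoters of the 25 genes, 16 held GAGGAA on either strand (53.3%), against 28.3% of all 32851 promoters of the same length. The longer form GAGGAAG, which contains the shorter one, was present in 11 of the 30 (36.7%) and in 13.6% of all promoters. Both genes that were lower and genes that were higher in Alt carried the motif. A match of letters is a description and not a binding site, and the part of PU.1 in the differences between the groups was not tested.

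In Ctr, the levels of these genes per unit of length spanned more than 2 orders of magnitude. On the TPM scale, the lysosomal protease gene Ctss had the highest group mean in Ctr, 176, followed by C1qb at 142, Csf1r at 87.04 and P2ry12 at 82.4. C1qa, Laptm5, C1qc and Cx3cr1 followed with TPM values of 62.9, 60, 55.95 and 53.9. At the low end stood Spi1 at 5.72 TPM, Irf8 at 3.06, Ptprc at 1.75 and C3 at 0.6. C1q and the homeostatic genes Csf1r, P2ry12 and Cx3cr1 were thus among the members with high levels. Other homeostatic genes were lower, such as P2ry13 at 18.95 TPM and Olfml3 at 12. C3 rested on 8 to 38 counts per library.

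Between Alt and Ctr, more of the genes at an unadjusted p of 0.05 were lower, led by Ctss, the C1q genes, Trem2, Tyrobp, Ly86 and Spi1. Fewer were higher, namely P2ry13, Cx3cr1, Cd33 and Ptprc. By the quasi-likelihood test of edgeR, 9 of the 33 genes (27.3%) were lower in Alt at an unadjusted p of 0.05, where 10.3% of all 17254 genes tested were lower. Another 4 were higher, or 12.1%, which is near the 9.45% of all genes that were higher. None of the 33 passed the Benjamini-Hochberg threshold of 0.05 over all genes (background 0% of genes), and the adjusted p of the 13 genes lay between 0.12 and 0.221. DESeq2 on the same counts called 4 members at an adjusted p of 0.05, namely Ctss (adjusted p = 8.08e-05), C1qa (adjusted p = 0.0173), Spi1 (adjusted p = 0.0346) and Trem2 (adjusted p = 0.047), where it called 8.5% of the 12905 genes with an adjusted p. Without Alt replicate 1 the number of members at an unadjusted p of 0.05 fell to 6, where 8.14% of genes were called, and without Alt replicate 2 it rose to 17, where 33.2% of genes were called.

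The comparison of the alleles also gave mostly lower levels in Alt. In Alt against Ref, 10 genes were lower (30.3%, background 8.83%) and 1, Ptprc, was higher (3.03%, background 6.71%) at an unadjusted p of 0.05. None passed the adjusted threshold in edgeR, where 0.0058% of genes did, and the adjusted p of the 11 genes lay between 0.229 and 0.318. DESeq2 called Ctss (adjusted p = 0.000279) and C1qa (adjusted p = 0.0132), 2 of 33 genes, where it called 3.82% of the 11233 genes with an adjusted p. Without Alt replicate 1 the count was 7, where 6.76% of genes were called. Alt against Ctr and Alt against Ref share the Alt libraries, and both comparisons with Ctr share the Ctr libraries, so their values are not independent of each other.

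Few members passed the unadjusted threshold between Ref and Ctr, although 23 of the 33 log2 fold changes were positive. Sall1 was the only member with an unadjusted p under 0.05, and it was higher in Ref (1 of 33, or 3.03%, background 2.19%), while no member was lower (background 0.945%). No member passed the adjusted threshold in edgeR (background 0%) and none did in DESeq2 (background 0.0551%). The median log2 fold change over the 33 genes was 0.16 for Ref against Ctr, -0.24 for Alt against Ctr and -0.34 for Alt against Ref, and the medians over all genes tested were 0.01, -0.03 and -0.04. The Alt-to-Ctr median of the members was -0.15 without Alt replicate 1 and -0.16 without Ctr replicate 2.

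**Figure D1:**
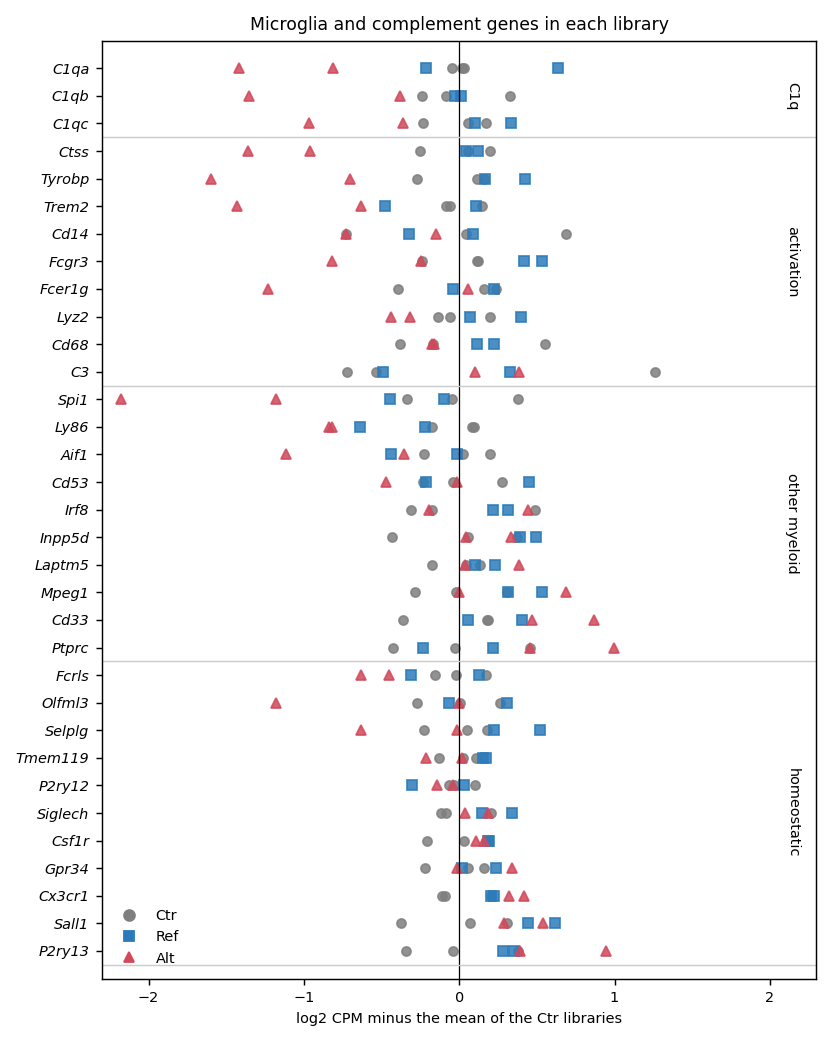
Log2 CPM of each member in each library minus the mean of the 3 Ctr libraries (x axis, log2 units), with 1 row per gene and the genes grouped by class. Circles are Ctr, squares Ref and triangles Alt. The 3 C1q genes and Ctss, Tyrobp and Trem2 have both Alt libraries to the left of all Ctr libraries, and P2ry13, Cx3cr1, Cd33 and Ptprc have both to the right.

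The level of 11 genes in both Alt libraries lay below all 5 Ctr and Ref libraries, and these were C1qa, C1qb, C1qc, Trem2, Tyrobp, Ctss, Fcrls, Fcgr3, Spi1, Ly86 and Lyz2. Such a separation was found downwards in 13.1% of all genes tested. In 4 genes, Cx3cr1, P2ry13, Cd33 and Ptprc, both Alt libraries lay above all others, which was found in 11.6% of all genes. The libraries of the remaining 18 genes overlapped.

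The C1q genes encode the A, B and C chains of the recognition protein of the classical complement pathway and lie side by side on chromosome 4. The deposited table lists them at chr4:136607440-136613498 (C1qb), chr4:136617115-136620376 (C1qc) and chr4:136623228-136626114 (C1qa), all on the minus strand. C1qa stood at 19.5, 18.5 and 19.3 CPM in Ctr, 29.8 and 16.4 CPM in Ref, and 7.09 and 10.8 CPM in Alt. Its 3 Ctr libraries were almost equal, the Ref libraries lay far apart, and both Alt libraries were below all others. The log2 fold change of C1qa was -1.09 ± 0.29 (SE, unadjusted p = 0.0028) for Alt against Ctr and -1.36 ± 0.31 (SE, unadjusted p = 0.00092) for Alt against Ref. Leaving out each library in turn, these ranged from -1.43 to -0.82 and from -1.72 to -0.88. C1qb stood at 42.05, 56.1 and 37.8 CPM in Ctr, 44.9 and 43.8 CPM in Ref, and 17.4 and 34.2 CPM in Alt. Alt replicate 2 came close to the lowest Ctr library, and only Alt replicate 1 was far below. For C1qb the log2 fold change was -0.81 ± 0.27 (SE, unadjusted p = 0.012) against Ctr and -0.78 ± 0.29 (SE, unadjusted p = 0.021) against Ref, and without Alt replicate 1 it was -0.40 and -0.36, no longer under a p of 0.05. The Alt-to-Ctr p also missed the threshold without Ctr replicate 2, at a log2 fold change of -0.62, and the Alt-to-Ref p without Ref replicate 1, at -0.77.

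C1qc followed the other chains, at 32.7, 35.5 and 26.7 CPM in Ctr, 39.7 and 33.7 CPM in Ref, and 16 and 24.4 CPM in Alt. Both Alt libraries were the lowest of the 7, with Alt replicate 2 just under Ctr replicate 3. Its log2 fold change was -0.65 ± 0.23 (SE, unadjusted p = 0.015) against Ctr and -0.86 ± 0.25 (SE, unadjusted p = 0.0045) against Ref. Against Ctr, the p missed the threshold without Alt replicate 1 (log2 fold change -0.37) or Ctr replicate 2 (-0.55). With a correction for gene length C1qc missed the threshold against Ctr (-0.37, unadjusted p = 0.091) and C1qb against Ref (-0.37, unadjusted p = 0.155), and a numeric score for the groups ended the call of C1qc as well. Uncorrected, all 3 chains were lower in Alt in both comparisons at an unadjusted p of 0.05, whereas between Ref and Ctr they differed by 0.28, -0.03 and 0.21 on the log2 scale, less than their SE or close to it. C3, the central component on which all complement pathways converge, was near the limit of detection, with counts of 8, 38 and 10 in Ctr, 10 and 18 in Ref, and 15 and 14 in Alt. Ctr replicate 2 alone was high, and the log2 fold change of -0.05 ± 1.03 (SE, unadjusted p = 0.96) for Alt against Ctr leaves a difference of either sign possible at this depth.

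Trem2, a lipid-sensing receptor of microglia, and Tyrobp, the ITAM adaptor through which it signals, were both lower in Alt. Trem2 stood at 15.8, 13.6 and 13.4 CPM in Ctr, 15.3 and 10.2 CPM in Ref, and 5.203 and 9.15 CPM in Alt. The Alt libraries were the 2 lowest, although Alt replicate 2 was close to Ref replicate 2. The log2 fold change of Trem2 was -0.99 ± 0.30 (SE, unadjusted p = 0.0066) for Alt against Ctr and -0.83 ± 0.32 (SE, unadjusted p = 0.025) for Alt against Ref. Without Alt replicate 1 these were -0.64 and -0.47 and missed the threshold, as did the Alt-to-Ref value of -0.51 without Ref replicate 1. Tyrobp, the shortest of the 33 genes, stood at 5.76, 4.23 and 5.57 CPM in Ctr, 6.92 and 5.79 CPM in Ref, and 1.63 and 3.12 CPM in Alt. All 5 Ctr and Ref libraries were above both Alt libraries, and the log2 fold change was -1.12 ± 0.40 (SE, unadjusted p = 0.016) against Ctr and -1.41 ± 0.42 (SE, unadjusted p = 0.0062) against Ref. Without Alt replicate 1 the Alt-to-Ctr value of Tyrobp was -0.73 and missed the threshold, as it did with a replicate block, with that block and the correction for length, and with a numeric score for the groups, while the Alt-to-Ref value kept it in all of these that apply to it.

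Fcgr3, a low-affinity receptor for antibodies, and Fcer1g, the gamma chain that pairs with such receptors, belong to the same signalling module. Fcgr3 stood at 12.2, 9.5 and 12.2 CPM in Ctr, 16.3 and 15.1 CPM in Ref, and 6.31 and 9.43 CPM in Alt. Ref was the highest group and Alt the lowest, and the log2 fold change was -0.99 ± 0.28 (SE, unadjusted p = 0.0045) for Alt against Ref and -0.52 ± 0.26 (SE, unadjusted p = 0.071) for Alt against Ctr. With the correction for gene length the Alt-to-Ref value of Fcgr3 was -0.59 (unadjusted p = 0.034), and a replicate block added to that correction ended its call. Leaving out each library in turn, the Alt-to-Ctr value of Fcgr3 ranged from -0.84 to -0.26. Without Ctr replicate 2 it was -0.63 and passed the unadjusted threshold. Fcer1g stood at 7.496, 5.07 and 7.94 CPM in Ctr, 6.53 and 7.86 CPM in Ref, and 2.797 and 6.97 CPM in Alt. Only Alt replicate 1 was low, Alt replicate 2 lay among the Ctr libraries, and the difference from Ctr of -0.48 ± 0.40 (SE, unadjusted p = 0.25) did not pass the unadjusted threshold.

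**Figure D2:**
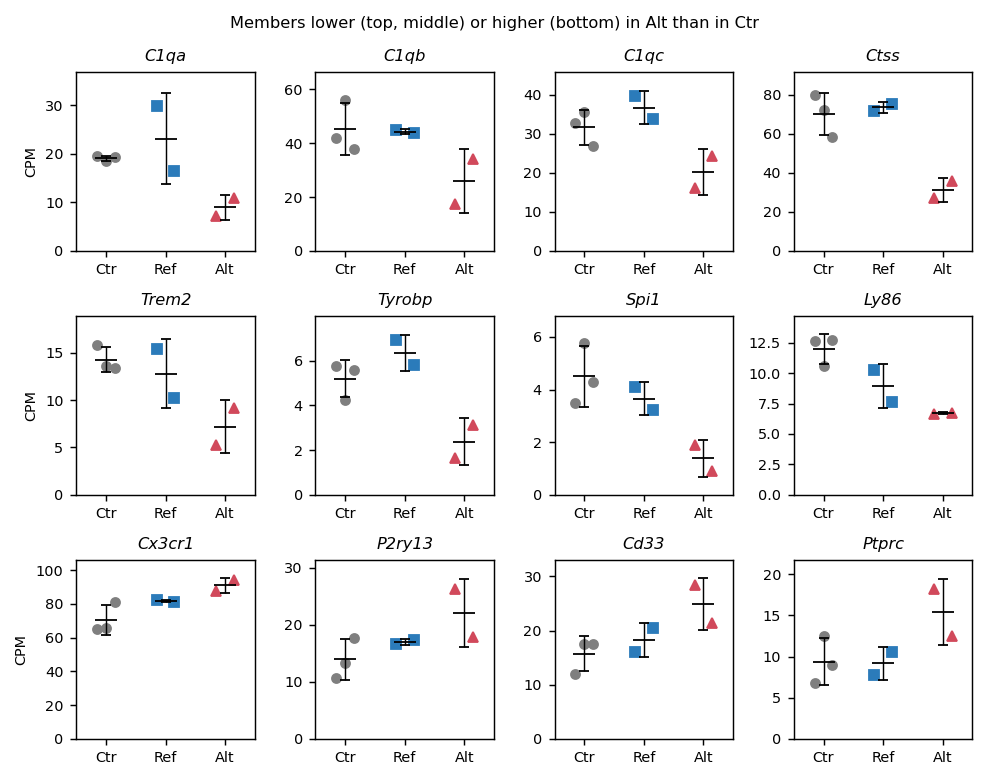
CPM per library (y axis, from 0) in Ctr, Ref and Alt for 8 members that were lower (top and middle rows) and 4 that were higher (bottom row) in Alt than in Ctr at an unadjusted p of 0.05. Each symbol is 1 library, the horizontal bar the group mean and the error bar the SD (3 Ctr, 2 Ref and 2 Alt libraries). In every panel both Alt libraries lie outside the range of the Ctr and Ref libraries, narrowly so for P2ry13 and Ptprc.

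Among the genes of the lysosome and of phagocytosis, Ctss differed most clearly. Ctss encodes cathepsin S, a protease that processes antigens and degrades extracellular matrix, and the table lists it at chr3:95434097-95463714 on the plus strand. It stood at 79.7, 72.1 and 58.2 CPM in Ctr, 71.5 and 75.4 CPM in Ref, and 26.9 and 35.6 CPM in Alt. The mean was 70.01 ± 10.9 CPM (SD, n = 3) in Ctr and 31.3 ± 6.16 CPM (SD, n = 2) in Alt, and both Alt libraries were far below the other 5. The log2 fold change of Ctss was -1.16 ± 0.19 (SE, unadjusted p = 6.27e-05) for Alt against Ctr, a fold of 0.447, and -1.23 ± 0.21 (SE, unadjusted p = 6.85e-05) for Alt against Ref. With the correction for gene length these were -0.83 and -0.80. This gene had the smallest p of all members in both comparisons (adjusted p in edgeR = 0.12 and 0.229), and leaving out any single library kept it under an unadjusted p of 0.05.

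The other lysosomal members differed less between Alt and Ctr. Cd68, a lysosomal membrane protein that marks phagocytic macrophages, stood at 8.39, 7.24 and 13.9 CPM in Ctr, 11.1 and 10.2 CPM in Ref, and 8.46 and 8.37 CPM in Alt. Ctr replicate 3 was the highest and the 2 Alt libraries lay within the range of Ctr, so that the log2 fold change of -0.23 ± 0.31 (SE, unadjusted p = 0.47) was within the spread. Lyz2, the macrophage lysozyme, was lower in Alt than in Ref, with 14.8, 12.4 and 11.8 CPM in Ctr, 13.5 and 17.01 CPM in Ref, and 10.3 and 9.48 CPM in Alt. Its log2 fold change was -0.62 ± 0.26 (SE, unadjusted p = 0.032) against Ref and -0.39 ± 0.24 (SE, unadjusted p = 0.13) against Ctr, and the Alt-to-Ref value missed the threshold without Alt replicate 2 (-0.55) or Ref replicate 2 (-0.44). It also missed it in DESeq2, with a replicate block, in a fit of only the groups compared and after a correction for gene length, which left -0.16 (unadjusted p = 0.57). Reads of Lyz2 and its near-identical neighbour Lyz1 may have been split between the genes. Laptm5, a lysosomal membrane protein of blood cells, and Mpeg1, the pore-forming macrophage perforin, had log2 fold changes in Alt against Ctr of 0.22 ± 0.17 (SE, unadjusted p = 0.22) and 0.36 ± 0.22 (SE, unadjusted p = 0.13). The Mpeg1 libraries of Alt lay far apart, at 82.2 and 51.03 CPM.

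Ly86, also called MD-1, which binds the toll-like receptor homologue CD180, stood at 12.7, 10.6 and 12.8 CPM in Ctr, 10.2 and 7.65 CPM in Ref, and 6.63 and 6.75 CPM in Alt. The 2 Alt libraries were nearly equal and the lowest, the Ref libraries lay between, and the log2 fold change was -0.84 ± 0.26 (SE, unadjusted p = 0.0074) for Alt against Ctr, -0.42 ± 0.28 (SE, unadjusted p = 0.16) for Alt against Ref and -0.42 ± 0.25 (SE, unadjusted p = 0.12) for Ref against Ctr. Leaving out any single library kept Ly86 under an unadjusted p of 0.05 in Alt against Ctr. Cd14, the coreceptor for bacterial lipopolysaccharide, ranged from 3.44 to 9.35 CPM within Ctr alone, a range that held every Ref and Alt library.

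The 3 transcription factors of the list differed in their patterns. Spi1, which encodes PU.1, the factor required for the myeloid lineage, had the lowest counts of the members that passed the unadjusted threshold, and it stood at 3.48, 5.76 and 4.27 CPM in Ctr, 4.11 and 3.21 CPM in Ref, and 1.89 and 0.892 CPM in Alt. These values rest on 29 and 16 counts in the Alt libraries and on 62 to 117 counts in the others, and both Alt libraries were below all others. The log2 fold change of Spi1 was -1.70 ± 0.50 (SE, unadjusted p = 0.0052) for Alt against Ctr and -1.40 ± 0.53 (SE, unadjusted p = 0.021) for Alt against Ref. In Alt against Ref the value missed the threshold without Alt replicate 2 (-0.94) or Ref replicate 1 (-1.22), while in Alt against Ctr leaving out any single library kept it. Irf8, a partner of PU.1, varied as much within Ctr as between the groups, from 4.92 to 8.66 CPM, and had a log2 fold change of 0.12 ± 0.34 (SE, unadjusted p = 0.74) in Alt against Ctr.

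Sall1, the factor that maintains microglial identity, stood at 22.5, 30.7 and 36.2 CPM in Ctr, 39.8 and 44.99 CPM in Ref, and 42.6 and 35.7 CPM in Alt. Both Ref libraries were above all Ctr libraries, 1 Alt library was as well, and Ctr itself spread widely. The log2 fold change of Sall1 was 0.51 ± 0.21 (SE, unadjusted p = 0.034) for Ref against Ctr and 0.39 ± 0.21 (SE, unadjusted p = 0.09) for Alt against Ctr. The Ref-to-Ctr value missed the threshold without Ctr replicate 1 (0.34), Ctr replicate 2 (0.53), Ref replicate 1 (0.60) or Ref replicate 2 (0.41). Sall1 was thus the only member called in Ref against Ctr, and that call rested on 4 of the 5 libraries compared.

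Of the chemokine and purine receptors in the list, Cx3cr1 and P2ry13 were higher in Alt than in Ctr at an unadjusted p of 0.05. Cx3cr1, the receptor for the neuronal chemokine fractalkine, stood at 65.2, 65.9 and 80.9 CPM in Ctr, 82.1 and 81.1 CPM in Ref, and 87.9 and 94.1 CPM in Alt. The order of the groups was Ctr, Ref, Alt, with Ctr replicate 3 next to the Ref libraries, and the log2 fold change was 0.36 ± 0.15 (SE, unadjusted p = 0.036) for Alt against Ctr and 0.16 ± 0.17 (SE, unadjusted p = 0.37) for Alt against Ref. The Alt-to-Ctr value missed the threshold without Ctr replicate 1 (0.31), Ctr replicate 2 (0.32), Ref replicate 1 (0.36), Ref replicate 2 (0.37) or Alt replicate 2 (0.31). The table gives Cx3cr1 a span of chr9:119730682-119898945, which overlaps several other genes.

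P2ry13, a receptor for ADP, stood at 10.7, 13.2 and 17.7 CPM in Ctr, 16.6 and 17.4 CPM in Ref, and 26.3 and 17.9 CPM in Alt. Alt replicate 1 was far above all others, while Alt replicate 2 was barely above Ctr replicate 3, and the log2 fold change was 0.67 ± 0.26 (SE, unadjusted p = 0.024) for Alt against Ctr and 0.38 ± 0.29 (SE, unadjusted p = 0.21) for Alt against Ref. Without Alt replicate 1 the Alt-to-Ctr value was 0.36 and missed the threshold, as it did without Ctr replicate 1 (0.51) or Ctr replicate 2 (0.63). P2ry12, the ADP receptor that guides microglial processes to injury, stood at 58.5, 65.5 and 59.7 CPM in Ctr, 49.6 and 62.4 CPM in Ref, and 59.5 and 55.3 CPM in Alt. These libraries overlapped in all groups, and the log2 fold change was -0.09 ± 0.16 (SE, unadjusted p = 0.57) for Alt against Ctr. The annotation of the table places both genes within Med12l, which is transcribed from the opposite strand and had a log2 fold change of 0.87 in Alt against Ctr (unadjusted p = 0.0067). Since the strand setting of the counting was not given in the sources used here, the reads of P2ry12 and P2ry13 may hold reads of Med12l. The part of Med12l in these values was not tested.

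Gpr34, a receptor for lysophosphatidylserine, showed a log2 fold change of 0.17 ± 0.21 (SE, unadjusted p = 0.44) in Alt against Ctr, and it lies within Cask on the opposite strand, whose log2 fold change was 0.68 (unadjusted p = 0.0033) and whose part in the Gpr34 counts was not tested. Csf1r, the receptor for the survival factors CSF1 and IL-34, had 126, 164 and 149 CPM in Ctr, 166 and 166 CPM in Ref, and 163 and 157 CPM in Alt. With the deepest coverage of all members, from 2506 to 3435 counts per library, its log2 fold change was 0.12 ± 0.15 (SE, unadjusted p = 0.43) in Alt against Ctr and -0.05 ± 0.17 (SE, unadjusted p = 0.76) in Alt against Ref, and the Alt libraries lay within the range of Ctr.

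The surface and secreted proteins of the homeostatic class were mixed. Tmem119, a membrane protein used as a specific marker of microglia, stood at 22.6, 20.3 and 23.9 CPM in Ctr, 24.7 and 25.03 CPM in Ref, and 19.2 and 22.5 CPM in Alt. All 7 libraries lay close together, and the log2 fold change was -0.10 ± 0.19 (SE, unadjusted p = 0.63) for Alt against Ctr. Fcrls, an Fc-receptor-like scavenger protein, was lower in Alt, with 28.5, 31.4 and 35.9 CPM in Ctr, 34.8 and 25.6 CPM in Ref, and 20.5 and 23.2 CPM in Alt. Its log2 fold change was -0.55 ± 0.21 (SE, unadjusted p = 0.022) against Ctr and -0.47 ± 0.22 (SE, unadjusted p = 0.06) against Ref, and the Alt-to-Ctr value missed the threshold without Alt replicate 1 (-0.46) or Ctr replicate 3 (-0.45).

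Selplg, the P-selectin ligand, was lower in Alt than in Ref at an unadjusted p of 0.05, with 35.05, 28.9 and 38.4 CPM in Ctr, 48.7 and 39.6 CPM in Ref, and 21.9 and 33.5 CPM in Alt. Ref was the highest group and the 2 Alt libraries were lower than both Ref libraries, with a log2 fold change of -0.67 ± 0.24 (SE, unadjusted p = 0.017) for Alt against Ref and -0.30 ± 0.22 (SE, unadjusted p = 0.2) for Alt against Ctr. The Alt-to-Ref value missed the threshold without Alt replicate 1 (-0.39) or Ref replicate 1 (-0.53). In Olfml3, a secreted matrix protein, only Alt replicate 1 was low, at 9.3 CPM against 21.2 CPM in Alt replicate 2, and the log2 fold change was -0.49 ± 0.32 (SE, unadjusted p = 0.15). Siglech, a sialic-acid-binding lectin, had 0.11 ± 0.20 (SE, unadjusted p = 0.6) in Alt against Ctr on the log2 scale.

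Cd33 and Ptprc were the other members with higher levels in Alt. Cd33, an inhibitory sialic-acid-binding receptor, stood at 12.01, 17.6 and 17.6 CPM in Ctr, 16.1 and 20.5 CPM in Ref, and 28.4 and 21.5 CPM in Alt. Both Alt libraries were the highest of the 7, and the log2 fold change was 0.66 ± 0.24 (SE, unadjusted p = 0.018) for Alt against Ctr and 0.44 ± 0.27 (SE, unadjusted p = 0.12) for Alt against Ref. Without Alt replicate 1 the Alt-to-Ctr value was 0.45 and without Ctr replicate 1 it was 0.50, and both missed the threshold.

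Ptprc, which encodes the leukocyte phosphatase CD45 and is the longest gene of the list at 18313 bases, stood at 6.75, 12.5 and 8.92 CPM in Ctr, 7.74 and 10.6 CPM in Ref, and 18.3 and 12.6 CPM in Alt. Alt replicate 2 was level with Ctr replicate 2, and Alt replicate 1 was far above. The log2 fold change was 0.71 ± 0.30 (SE, unadjusted p = 0.037) against Ctr and 0.75 ± 0.34 (SE, unadjusted p = 0.047) against Ref, and without Alt replicate 1 these were 0.42 and 0.46 and missed the threshold. The Alt-to-Ctr value also missed it without Ctr replicate 1 (0.52) or Ctr replicate 3 (0.68), and the Alt-to-Ref value without Ctr replicate 3 (0.75) or Ref replicate 1 (0.53).

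Inpp5d, the inositol phosphatase SHIP1, had a log2 fold change of 0.16 ± 0.25 (SE, unadjusted p = 0.53) in Alt against Ctr. Aif1, the cytoskeletal protein IBA1 by which microglia are stained, was measured at 3.92, 4.68 and 5.29 CPM in Ctr, 4.55 and 3.36 CPM in Ref, and 3.58 and 2.06 CPM in Alt. Both Alt libraries were below all Ctr libraries and 1 was above the lower Ref library, and the log2 fold change of -0.72 ± 0.41 (SE, unadjusted p = 0.11) for Alt against Ctr did not pass the unadjusted threshold. Cd53, a tetraspanin of leukocytes, had -0.24 ± 0.28 (SE, unadjusted p = 0.41) in the same comparison.

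By class, the activation and C1q genes had negative medians in Alt, which shrank by over 1.5 times with a correction for gene length, and the homeostatic genes had a median near 0. In Alt against Ctr, all 9 activation genes had a negative log2 fold change, with a class median of -0.52. Of these, 3 of 9 were lower at an unadjusted p of 0.05 (33.3%, background 10.3%), namely Ctss, Trem2 and Tyrobp. All 3 C1q genes were lower at that p, with a median of -0.81. Of the 11 homeostatic genes, 6 had a positive and 5 a negative log2 fold change, with 2 higher (P2ry13 and Cx3cr1) and 1 lower (Fcrls) at an unadjusted p of 0.05 and a median of 0.11. These are 18.2% higher and 9.09% lower, where 9.45% and 10.3% of all genes were. The 10 other myeloid genes were divided, with Cd33 and Ptprc higher, Spi1 and Ly86 lower, 20% each way, and a median of 0.14. The median over all genes tested was -0.03. After the correction the medians in Alt against Ctr were -0.21 for activation, -0.52 for C1q, 0.16 for homeostatic and 0.04 for other myeloid genes. In Alt against Ref the class medians were -0.62 for activation, -0.86 for C1q, -0.11 for homeostatic and -0.18 for other myeloid genes, and in Ref against Ctr they were 0.07, 0.21, 0.18 and 0.15. The Alt-to-Ref medians became -0.18, -0.48, 0.08 and 0.01 after the correction. The difference between the homeostatic and activation medians fell from 0.62 to 0.36 in Alt against Ctr and from 0.51 to 0.26 in Alt against Ref with the correction. Uncorrected, it was 0.27 in Alt against Ctr without Alt replicate 1, and 1.27 in Alt against Ref without Alt replicate 2.

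The balance of the classes was then followed in each library as the mean log2 CPM of the homeostatic genes minus that of the activation genes. It was 1.84, 1.90 and 2.21 in Ctr, 2.09 and 2.04 in Ref, and 2.76 and 2.41 in Alt. Both Alt libraries were above all others, and the means were 1.98 ± 0.20 for Ctr (SD, n = 3), 2.06 ± 0.033 for Ref (SD, n = 2) and 2.58 ± 0.25 for Alt (SD, n = 2). The homeostatic mean lay between 4.94 and 5.29 in all libraries, and the Alt libraries, at 5.05 and 5.15, were within the range of Ctr. The activation mean was 3.02 to 3.16 in Ctr, 3.202 and 3.203 in Ref, and 2.29 and 2.74 in Alt, so that the larger difference came from the activation genes. No p is given for this difference, since it is a score over chosen members. It is not a measure of microglial activation, since the activation class holds genes with high levels in Ctr, such as Ctss.

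**Figure D3:**
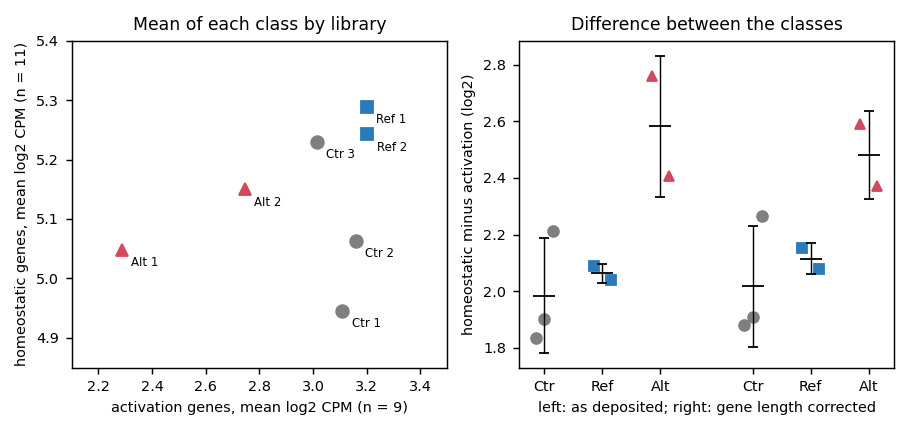
Left, mean log2 CPM of the 9 activation genes (x axis) and of the 11 homeostatic genes (y axis) in each library. Right, the difference between the class means in each library, from the CPM values and after the correction for gene length, with circles for Ctr, squares for Ref, triangles for Alt, a horizontal bar for the group mean and error bars for the SD. The 2 Alt libraries are the lowest in activation genes, and their difference between the classes is the largest of the 7, before and after the correction.

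Gene length moved with these results. In the deposited table, the members had a median length of 2546 bases against 4051 bases over all genes tested. The activation genes were short, with a median of 1358 bases and 7 of 9 genes under 2000 bases, and so were the C1q genes, with a median of 1088 bases and all 3 under 2000 bases. The homeostatic genes had a median of 3383 bases and none was under 2000 bases. Across all 17254 genes, Spearman's rho between the log2 fold change of Alt against Ctr and gene length was 0.33, and across the 33 members it was 0.60 (Pearson's r 0.20 and 0.60). The points share the same libraries, and genes are not independent replicates. All genes under 2000 bases had a median log2 fold change of -0.37 in Alt against Ctr, and the 12 members of that length had a median of -0.59, with all 12 negative. Among genes of at least 2000 bases the medians were 0.01 over all genes and 0.12 over the 21 members.

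**Figure D4:**
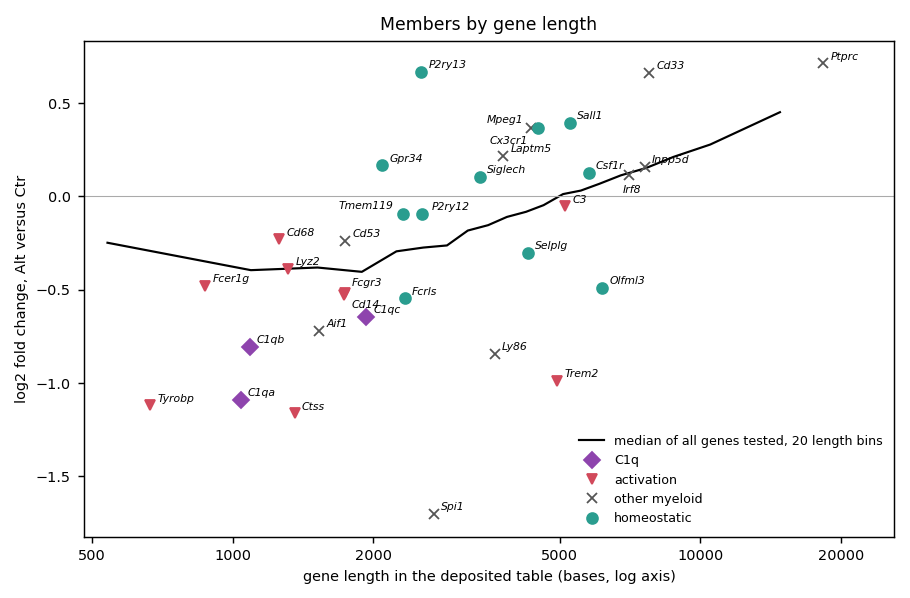
Log2 fold change of Alt against Ctr (y axis) of each member by gene length in bases (x axis, log scale), with the symbol showing the class. The black line joins the medians of all genes tested in 20 bins of length. Short genes lie lower in Alt as a whole, and Ctss, C1qa, Tyrobp, Trem2, Ly86 and Spi1 lie below the line of their length, while P2ry13, Cd33 and Gpr34 lie above it.

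After a correction that removed a smooth curve of gene length from each library, 7 members were lower in Alt than in Ctr at an unadjusted p of 0.05 (21.2%, background 9.06%) and 4 were higher (12.1%, background 7.3%). C1qa (-0.76, unadjusted p = 0.0077), C1qb (-0.52, unadjusted p = 0.041), Trem2 (-0.98, unadjusted p = 0.0041), Tyrobp (-0.86, unadjusted p = 0.038), Ctss (-0.83, unadjusted p = 3.40e-04), Spi1 (-1.46, unadjusted p = 0.015) and Ly86 (-0.70, unadjusted p = 0.018) stayed under the threshold. C1qc (-0.37, unadjusted p = 0.091), Fcrls (-0.30, unadjusted p = 0.15) and Ptprc (0.20, unadjusted p = 0.44) no longer did. Cx3cr1 (0.42, unadjusted p = 0.009), P2ry13 (0.93, unadjusted p = 0.0041) and Cd33 (0.51, unadjusted p = 0.035) stayed higher, and Laptm5 (0.34, unadjusted p = 0.039) joined them. The smallest adjusted p among the members was 0.103.

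The median of the 33 members moved with the correction from -0.24 to -0.02 in Alt against Ctr and from -0.34 to -0.06 in Alt against Ref, and the medians of all genes tested were then -0.01 and 0.05. In Alt against Ref, 7 members were lower (21.2%, background 5.6%), namely Ctss, C1qa, C1qc, Tyrobp, Trem2, Fcgr3 and Selplg, and P2ry13 was higher (3.03%, background 7.42%). The corrected values of both Alt libraries lay below all others in 5 genes, C1qa, Trem2, Tyrobp, Ctss and Spi1 (background 10.3%), and above all others in 4, Cx3cr1, P2ry13, Cd33 and Laptm5 (background 10.6%). The difference between homeostatic and activation genes became 1.88, 1.91 and 2.26 in Ctr, 2.153 and 2.08 in Ref, and 2.59 and 2.37 in Alt. The Alt libraries were still the highest, Alt replicate 2 by a narrow margin over Ctr replicate 3, and the group means were 2.02 ± 0.21 (SD, n = 3), 2.11 ± 0.054 (SD, n = 2) and 2.48 ± 0.16 (SD, n = 2).

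**Figure D5:**
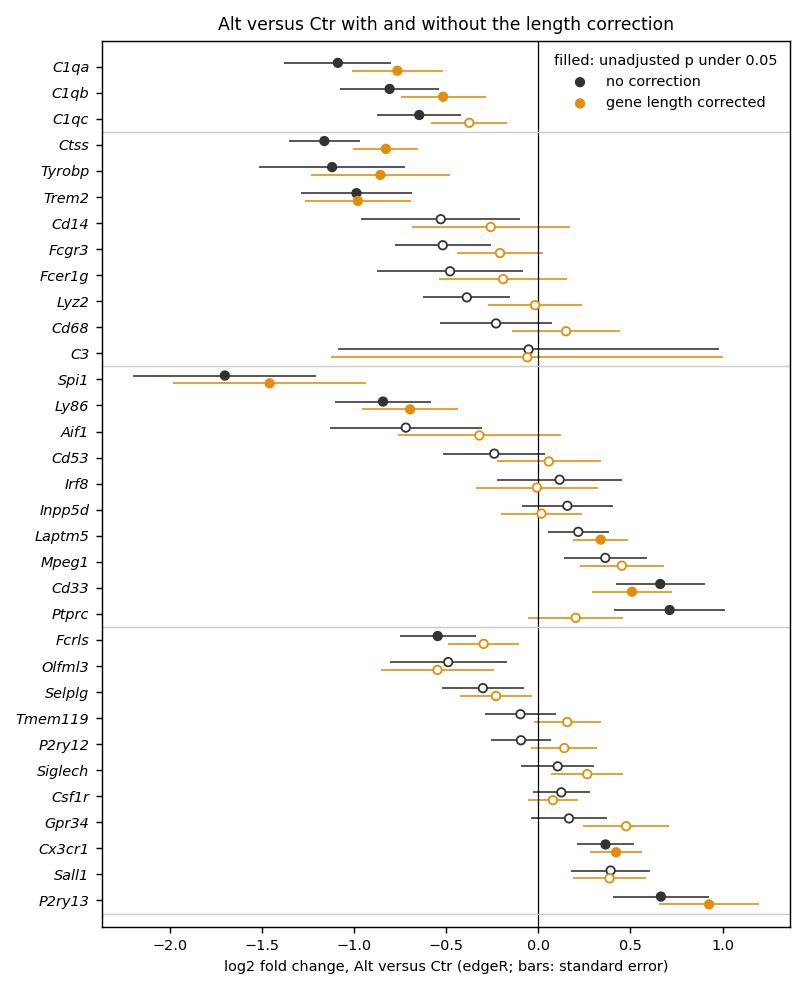
Log2 fold change of Alt against Ctr (x axis) with its standard error for each member, before (dark) and after (orange) the correction for gene length, grouped from top to bottom into C1q, activation, other myeloid and homeostatic genes. Filled points have an unadjusted p under 0.05. Trem2 hardly moves with the correction, most short genes move towards 0, and Ptprc, the longest gene, loses most of its difference.

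Other genes of the complement system were taken from a list of 41, of which 32 had enough counts. In Alt against Ctr, 6 were higher and 1 was lower at an unadjusted p of 0.05, with a median log2 fold change of 0.29 (over all genes tested, 9.45% were higher and 10.3% lower). The 4 with the smallest p among the higher genes were Csmd1 (0.68), C1ql3 (0.48), Csmd3 (0.72) and Csmd2 (0.73), which are complement-control or C1q-like genes of neurons, and the lower gene was Clu (-0.52), the astrocytic chaperone clusterin. The 3 Csmd genes are 19030, 17077 and 16882 bases long in the table, and none of them passed the unadjusted threshold after the correction for length, whereas C1ql3, C4b and Clu did. Without Alt replicate 1 or without Ctr replicate 1, 2 of the 32 were higher and 0 were lower in Alt against Ctr, where 8.14% and 11.8% of all genes were called in either direction. Clu and C4b lie outside the rule for naming genes and were chosen after their values were seen. In Ref against Ctr 0 were higher and 1 was lower (background 2.19% and 0.945%), and in Alt against Ref 4 were higher and 1 was lower (background 6.71% and 8.83%).

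Of the genes known to rise in disease-associated microglia, 17 of 22 had a negative log2 fold change in Alt against Ctr. The median over all genes tested was -0.03. Of these 22 genes, 8 were lower and 1 was higher than in Ctr at an unadjusted p of 0.05, with a median log2 fold change of -0.53 (over all genes tested, 10.3% were lower and 9.45% higher), and the list shares no gene with the 33. Without Alt replicate 1, 4 were lower and 0 were higher, with a median of -0.30 (8.14% of all genes called in either direction), and without Alt replicate 2, 14 were lower and 2 were higher, with a median of -0.71 (33.2% of all genes called). Ctsl, a lysosomal cathepsin, stood at 44.8, 51.98 and 41.2 CPM in Ctr, 48.7 and 40.8 CPM in Ref, and 18.3 and 29.3 CPM in Alt. Both Alt libraries were the lowest, with a log2 fold change of -0.95 ± 0.22 (SE, unadjusted p = 0.0012). Ctsz, another cathepsin (-0.87, unadjusted p = 0.0038), and the tetraspanin Cd9 (-1.03, unadjusted p = 0.011) were lower as well, and lipoprotein lipase, Lpl (0.90, unadjusted p = 0.0042), was the higher gene. Cd9 (-0.46) and Lpl (0.35) missed the threshold without Alt replicate 1. After the correction for length 9 were lower and 1 was higher (background 9.06% and 7.3%), with a median of -0.40. Several of these genes, such as Cd9 and Apoe, are also expressed by astrocytes or oligodendrocytes. In Alt against Ref 10 were lower and 2 were higher (background 8.83% and 6.71%), or 6 and 1 without Alt replicate 1 (6.76% of all genes called in either direction) and 6 and 2 after the correction for length (background 5.6% and 7.42%). In Ref against Ctr 1 was lower and 1 was higher (background 0.945% and 2.19%).

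A further 20 homeostatic microglial genes were tested, of which 2 were higher and 2 were lower in Alt than in Ctr, close to the 9.45% and 10.3% of all genes, with a median log2 fold change of 0.01. Without Alt replicate 2 the lower genes numbered 9 (33.2% of all genes called). Lag3, an inhibitory receptor, stood at 11.96, 17.8 and 15.8 CPM in Ctr, 16.2 and 12.9 CPM in Ref, and 1.496 and 5.24 CPM in Alt. Both Alt libraries were far below the others, with a log2 fold change of -2.15 ± 0.43 (SE, unadjusted p = 3.03e-04). Ltc4s, leukotriene C4 synthase, had 24 to 27 counts in the Ctr libraries, 21 and 23 in Ref and 0 in both Alt libraries, where 0 counts allow up to 3. The efferocytosis receptor Mertk (0.38, unadjusted p = 0.034) and the transporter Slco2b1 (0.48, unadjusted p = 0.044) were higher, and neither passed the threshold without Alt replicate 1, Ctr replicate 1 or Ctr replicate 3. In Ref against Ctr 3 of the 20 were higher and 0 were lower (background 2.19% and 0.945%), and in Alt against Ref 0 were higher and 4 were lower (background 6.71% and 8.83%), or 2 lower without Alt replicate 1 and 9 without Alt replicate 2 (6.76% and 28.9% of all genes called in either direction).

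Of 14 cytokine and chemokine genes tested, Nlrp3, the inflammasome sensor, was higher in Alt than in Ctr, at 1.39, 0.541 and 1.58 CPM in Ctr, 0.967 and 1.396 CPM in Ref, and 4.42 and 2.73 CPM in Alt, with a log2 fold change of 1.60 ± 0.64 (SE, unadjusted p = 0.028), which missed the threshold without Alt replicate 1 (1.22) or Ctr replicate 2 (1.26). Cxcl10, an interferon-induced chemokine, was lower, with 19, 82 and 36 counts in Ctr, 31 and 18 in Ref, and 0 and 5 in Alt. The other 12 did not pass the unadjusted threshold in Alt against Ctr, so that 1 of 14 in each direction stands below the 9.45% and 10.3% of all genes, and in Ref against Ctr 0 of the 14 passed it. Among 12 ligands of microglial receptors made by neurons and glia, 1 was higher and 2 were lower in Alt than in Ctr (background 9.45% and 10.3%). The don't-eat-me signal Cd47 was higher (0.47, unadjusted p = 0.037), and Cd200 (-0.59, unadjusted p = 0.0082), which restrains microglia through its receptor, and Apoe (-0.81, unadjusted p = 0.032) were lower. None of the 3 passed the threshold without Alt replicate 1, at 0.05, -0.33 and -0.30. Cd200 was also lower in Ref than in Ctr (-0.42, unadjusted p = 0.044).

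Markers of other cells moved with the groups in part. Of 8 markers of border-associated macrophages tested, 4 were higher in Alt than in Ctr and 0 were lower, namely Stab1 (0.78), Mrc1 (0.92), Cd163 (1.03) and F13a1 (0.88), and the summed level of the list was 38.9 to 44.5 CPM in Ctr, 48.2 and 51.1 CPM in Ref, and 66.5 and 81.0 CPM in Alt, with 4 of 9 markers at 0 in Alt replicate 1. Over all genes tested, 9.45% were higher and 10.3% lower. Without Alt replicate 2, 1 of the 8 was higher and 1 was lower, and the median of the list turned from 0.67 to -0.62, whereas without Alt replicate 1 the count stayed at 4 higher and the median was 1.18. At the same unadjusted p of 0.05, with none called after adjustment, 1 of 9 astrocyte markers was higher and 2 were lower, 3 of 9 neuron markers were higher and 1 was lower, 2 of 8 endothelial markers were higher, and 1 of 5 red blood cell markers was lower in Alt than in Ctr. Most of these counts moved with single libraries. Without Alt replicate 1, 1 neuron marker was higher and 0 were lower, 1 astrocyte marker was higher and 0 were lower, 4 endothelial markers were higher and 0 red blood cell markers were lower, where 8.14% of all genes were called in either direction. Without Alt replicate 2, 5 neuron markers were higher and 2 were lower, 2 endothelial markers were higher and 3 were lower, and 2 red blood cell markers were lower, where 33.2% of all genes were called. Without Ctr replicate 1 no neuron marker passed the threshold (11.8% of all genes called), and without Ctr replicate 3 no red blood cell marker did (16.7% of all genes called). In Ref against Ctr 3 of 9 astrocyte markers (Aldoc, Gja1 and Aldh1l1) and 2 of 8 endothelial markers (Vwf and Flt1) were higher (background 2.19%), and no neuron, red blood cell or border-associated macrophage marker passed the threshold. Border-associated macrophages also express Cx3cr1, Csf1r, Ptprc and C1q, and their part in the values of the members was not tested. Blood monocyte and neutrophil markers summed to 0.394 to 2.90 CPM per library and lymphocyte markers to 0.0558 to 3.21 CPM, with at least 3 of 10 and at least 1 of 8 markers at 0 in every library. The summed oligodendrocyte markers were 2420 to 3419 CPM in Ctr, 4100 and 5085 CPM in Ref, and 2374 and 2914 CPM in Alt, with 8 of 10 higher in Ref than in Ctr (background 2.19%). In Alt against Ctr 2 of the 10 were lower (background 10.3%), namely Mbp and Mag, with a median of -0.07, and Mag missed the threshold without Ctr replicate 2 (-0.34). In Alt against Ref 8 of 10 were lower (background 8.83%), with a median of -0.85 and 1 at an adjusted p of 0.05 in edgeR. What part this has in the values of the members was not tested.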

How the data were processed

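RNA-seq of mouse PFC was analysed in 7 libraries, grouped as 3 Ctr, 2 Ref and 2 Alt from the sample titles. Read counts per gene and library stand in 1 deposited table, and the authors did not normalize them. The authors deposited TPM and FPKM values in the same table, computed from the counts and the gene length in bases that stands beside them. TPM served to compare levels between genes, and FPKM values were not used further. The submitters' processing notes name STAR and featureCounts, and versions, strand setting and mouse genome build were not given in the sources used here. Coordinates are as the deposited table lists them, and promoters are from RefSeq, GRCm38.p6, a build whose coordinates differ from those of the table.

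Counts were tested in R 4.3.3 with edgeR 4.0.16 (TMM, filterByExpr, glmQLFit and glmQLFTest on group means, with all 7 libraries in the fit), with Benjamini-Hochberg adjustment over 17254 genes. The study's own test was DESeq2 with the order Ctr, Ref, Alt. Standard errors are the log2 fold change divided by the square root of F. Log2 CPM used a prior count of 2. The length correction removed a loess curve of span 0.3 per library through offsets. The scripts were tested on simulated data.

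The 33 members, the classes and the other lists were chosen with earlier results of these data known. Genes were named by a rule that gives full values for members with an unadjusted p under 0.05 in any comparison and, whatever their p, for Cx3cr1, P2ry12, Tmem119, Csf1r, the C1q genes, C3, Trem2, Tyrobp, Cd68, Aif1, Ptprc, Spi1 and Sall1, and values for at most 4 genes per other list and comparison, with Clu and C4b named beyond it. Trbc2, C5 and Clec7a, which stand in the other lists, had no protein-coding row of that symbol. Same-numbered libraries of different groups were checked for shared deviations. The correlations lay between -0.0984 and 0.0702, so they showed no pairing by number, and whether same-numbered libraries shared a preparation was not tested. Alternatives were DESeq2 1.42.0, other size factors, no filter, the length correction, a robust fit, a replicate block, fewer groups or rows, a numeric score and leaving out each library, and the length correction without either Alt library was added after seeing the data. Precision is limited by 16655697 to 20750857 counts per library.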

Additional observations from a re-analysis of the deposited data

How the results depend on the processing

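No alternative turned the direction of a member that had an unadjusted p under 0.05, and C1qa, Ctss, Spi1 and Ly86 kept that p in all 18 alternatives other than the added ones for Alt against Ctr, as C1qa, C1qc, Tyrobp and Ctss did in all 17 for Alt against Ref. Members at an adjusted p of 0.05 numbered 0 by edgeR in both comparisons, 4 and 2 by DESeq2 (8.5% and 3.82% of all genes), and 5 and 4 without the low-count filter (5.52% and 3.16% of all genes). The median of the members moved to -0.0171 (Alt against Ctr) and -0.0589 (Alt against Ref) with the length correction and to -0.115 and -0.0499 with the replicate block added to it. That fit left 5 members at an unadjusted p of 0.05 in Alt against Ref (9.57% of all genes) and 2 in Ref against Ctr (5.48%), where the fit without the filter (3%) and the fit of only the groups compared (5.73%) also gave 2. The replicate block alone gave 11, 8 and 1 members for Alt against Ctr, Alt against Ref and Ref against Ctr (12.6%, 9.01% and 2.49% of all genes), with medians of -0.21, -0.36 and 0.19, and changed no count of members by over 1.5 times. It ended the unadjusted call of Tyrobp, Fcrls and Ptprc in Alt against Ctr and of Trem2, Ptprc and Lyz2 in Alt against Ref. The fit of only the groups compared ended that of Cx3cr1 in Alt against Ctr and of Trem2, Spi1 and Lyz2 in Alt against Ref, the fit without the filter that of Cx3cr1, the numeric score those of C1qc and Tyrobp, DESeq2 that of Lyz2, and the length correction those of C1qc, Fcrls and Ptprc in Alt against Ctr and of C1qb, Ptprc, Spi1 and Lyz2 in Alt against Ref.

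Leaving out each library in turn, members at an unadjusted p of 0.05 numbered 6 to 17 in Alt against Ctr, 6 to 13 in Alt against Ref and 0 to 2 in Ref against Ctr. The lowest count came without Alt replicate 1 in Alt against Ctr (8.14% of all genes), without Ref replicate 1 in Alt against Ref (4.19%), and without Ctr replicate 1, Ref replicate 1 or Ref replicate 2 in Ref against Ctr (2.06%, 1.49% and 1.25%). The median of the members ranged from -0.35 to -0.15, -0.39 to -0.27 and 0.11 to 0.20 in Alt against Ctr, Alt against Ref and Ref against Ctr. The lone library of a group was then assumed to vary like the other groups. Members at an adjusted p of 0.05 numbered 0 to 11 and 0 to 9 in Alt against Ctr and Alt against Ref, with the highest counts without Alt replicate 2, where 18.3% and 14.4% of all genes passed that threshold, and 33.2% and 28.9% had an unadjusted p under 0.05. The median difference between homeostatic and activation genes ranged from 0.27 (without Alt replicate 1) to 0.88 in Alt against Ctr, from 0.35 to 1.27 (without Alt replicate 2) in Alt against Ref and from -0.01 to 0.15 in Ref against Ctr.

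With the length correction and without Alt replicate 1, 8 members in Alt against Ctr and 3 in Alt against Ref had an unadjusted p under 0.05 (7.42% and 6.44% of all genes), with medians of -0.0691 and -0.1479. Without Alt replicate 2 it gave 7 and 7 members at an adjusted p of 0.05 (11% and 7.79% of all genes), medians of 0.0714 and -0.0673 and a difference between homeostatic and activation genes of 0.8803 in Alt against Ref. The cause of these changes was not tested. Depth limits C3, with at most 38 counts per library, and Spi1, with 16 and 29 counts in Alt.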
